A study of Rattus norvegicus with 241 samples.

Results

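The 7 genes ATF4, DDIT3, TRIB3, ASNS, CHAC1, SESN2 and GDF15 of the integrated stress response were followed through every table of the study, where they are 7 of the 16820 genes listed in any bulk table. They were picked as ATF4 and its target genes and were selected from earlier results of these same data, and the record of the choice does not say which comparison weighed most, so the differences given here describe the genes and are no independent evidence about them. Their symbols were found, ignoring case, in all bulk and single-cell tables.

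The study asked how a short course of TGFBRi changes the rat mammary gland. TGFBRi is LY2157299 (galunisertib), an inhibitor of the TGF-beta type 1 receptor kinase, given by gavage at 75 mg/kg, and controls received the vehicle alone. Bulk RNA was measured in 202 samples from cells sorted as basal epithelium (CD24+CD29high), luminal epithelium (CD24+CD29low) and leukocytes (CD45+), and single-cell RNA in 39 samples. All rats were ACI or Sprague-Dawley (SD) females and no group carried an engineered allele. All were virgin except the parous adult ACI rats. Young ACI rats were dosed from 35 days of age for 10 days and taken on day 0, 7 or 14 after the last dose, with 3 rats per treatment and day. The title of 1 CD45+ sample, day 7 TGFBRi replicate 3, says day 9 while its other label fields say day 7, and it was used as day 7. Without it 1 of the 63 treatment tests below still passed, and 0 of the 42 tests of a change between days. Young SD rats were dosed from 24 days of age for 10 days, with 4 rats per treatment taken on day 0. Adult ACI rats were dosed for 10 days at 18 to 24 weeks of age and taken on day 0. They were virgin or parous, with 2 to 4 rats per sort and group. SD rats of the NMU experiment were dosed from 21 days of age for 10 days, then received 50 mg/kg of the carcinogen NMU (N-nitroso-N-methylurea), and were taken on day 87 as tumor-bearing vehicle, tumor-bearing TGFBRi or tumor-free TGFBRi rats, 3 of each. Tumors of the NMU experiment were sorted as EPCAM+ tumor cells and CD45+ cells, 3 per treatment. ACI rats of the estradiol (E2) experiment were dosed from 38 days of age for 21 days and then carried a 37 mg E2 implant or an empty one. Per the study, their cells were taken at the end of the tumor experiment and not soon after dosing. Among its rats measured here, all vehicle rats with E2 bore tumors and all rats without E2 were free of them, so estradiol and tumor state cannot be told apart in vehicle rats. Single cells came from the basal and luminal sorts of 3 TGFBRi and 3 vehicle ACI rats, from the same sorts of 6 TGFBRi and 3 vehicle SD rats, and from unsorted whole gland of 6 TGFBRi and 3 vehicle SD rats, all on day 0 after 10 days of dosing from 35 days (ACI) or 24 days (SD) of age. Strain was not compared by a test, because ACI and SD rats also differed in age and sequencing.

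The integrated stress response is a shared answer of cells to amino acid shortage, unfolded protein in the endoplasmic reticulum, haem shortage and double-stranded RNA. Stress-sensing kinases phosphorylate the initiation factor eIF2alpha, which lowers protein synthesis in general and raises translation of ATF4, a transcription factor that switches on genes of amino acid supply, tRNA charging, redox balance and cell death. ATF4 is controlled to a large part at translation, so its mRNA is not a measure of its protein or its activity. In the mammary gland the luminal cells make milk protein and the basal cells contract, and both depend on amino acid uptake.

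Of the 7 genes, TRIB3 and CHAC1 have the core of the C/EBP-ATF response element near their start site, and their promoters are printed because they are also the members whose levels moved most alike. The element was searched as TGATGNAA on both strands in 250 bases before to 50 bases after the RefSeq start (assembly GRCr8, which is not the build of the deposited tables), and all 7 members were matched, GDF15 with 2 entries. It stood in 2 of the 8 member entries and in 1332 of all 33469 promoters, or 3.98%. Capitals mark the matched letters, which in both promoters lie on the opposite strand, and the Chac1 promoter is chr3:126795881-126796180 on the plus strand and the Trib3 promoter chr3:161275484-161275783 on the minus strand. The match begins 167 bases before the start of Chac1 and 21 bases before that of Trib3.
Chac1: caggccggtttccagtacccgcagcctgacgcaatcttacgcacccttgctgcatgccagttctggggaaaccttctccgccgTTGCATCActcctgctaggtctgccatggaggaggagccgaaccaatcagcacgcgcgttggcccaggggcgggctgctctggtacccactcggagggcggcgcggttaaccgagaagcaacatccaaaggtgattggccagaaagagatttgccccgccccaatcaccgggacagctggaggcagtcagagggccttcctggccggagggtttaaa
Trib3: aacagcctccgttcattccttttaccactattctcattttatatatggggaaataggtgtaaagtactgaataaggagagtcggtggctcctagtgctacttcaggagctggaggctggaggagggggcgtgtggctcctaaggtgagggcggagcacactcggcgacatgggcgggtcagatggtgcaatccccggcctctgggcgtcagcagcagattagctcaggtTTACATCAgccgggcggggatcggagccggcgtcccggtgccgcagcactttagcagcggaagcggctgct
The match is a description of letters in these windows, and the lack of these letters in the other 6 entries says nothing about ATF4 at those genes.

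Bulk values are the deposited normalized counts, and levels are also given as rpm, the reads of a gene scaled by all reads on genes of the library. Bulk libraries held 4194912 to 52314784 reads on genes. Tests are limma on log2(normalized count + 1), adjusted over all genes of a comparison with a threshold of 0.05, so a fold change is on that scale, and they measure only the spread between rats. In bulk samples, fewer cells of a type and less RNA per cell cannot be told apart. In 23 of 196 rat libraries the summed reads of 71 to 76 nuclear genes for respiratory chain subunits were over 22000 rpm, 7 of them among the 36 young ACI epithelial libraries (24080 to 44847 rpm, against 3179 to 20794 rpm in the rest). Leaving out the libraries over this limit was a step added after seeing the data. Values without them follow for the NMU luminal cells, and counts of calls without them for the young ACI and NMU gland fits. None can be had for NMU basal cells of tumor-bearing rats, where all 3 TGFBRi libraries were over the limit, or for CD45+ cells of NMU tumors, where 5 of 6 were. On day 0 the basal, luminal progenitor and leukocyte marker lists were highest in the sorts they name, but basal sorts of SD vehicle rats held 34497 to 53527 rpm of 7 fibroblast markers against 15643 to 19618 rpm of 10 basal markers. CD45+ sorts held 6840 to 42848 rpm of fibroblast markers in SD vehicle rats and 12687 to 32403 rpm in ACI vehicle rats at day 0, beside 4349 to 9480 and 4484 to 8357 rpm of 6 leukocyte markers. Any part of other cell types in the members' levels was not tested.

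In vehicle rats on day 0 the members differed in how their levels were spread over the sorts. Each gene is compared only with itself, since the values carry no correction for length. ATF4 stood at 2419, 2405 and 2188 rpm in ACI basal cells, at 2321, 2218 and 2428 rpm in luminal cells and at 1971, 2012 and 1773 rpm in CD45+ cells. In SD rats ATF4 was at 1311, 1185, 1297 and 1647 rpm in basal cells, at 1864, 2003, 1732 and 1738 rpm in luminal cells and at 2005, 2093, 1704 and 1929 rpm in CD45+ cells. Every SD basal value lay under every other ATF4 value of these 6 groups, while the ACI basal and luminal values overlapped.

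**Figure D1:**
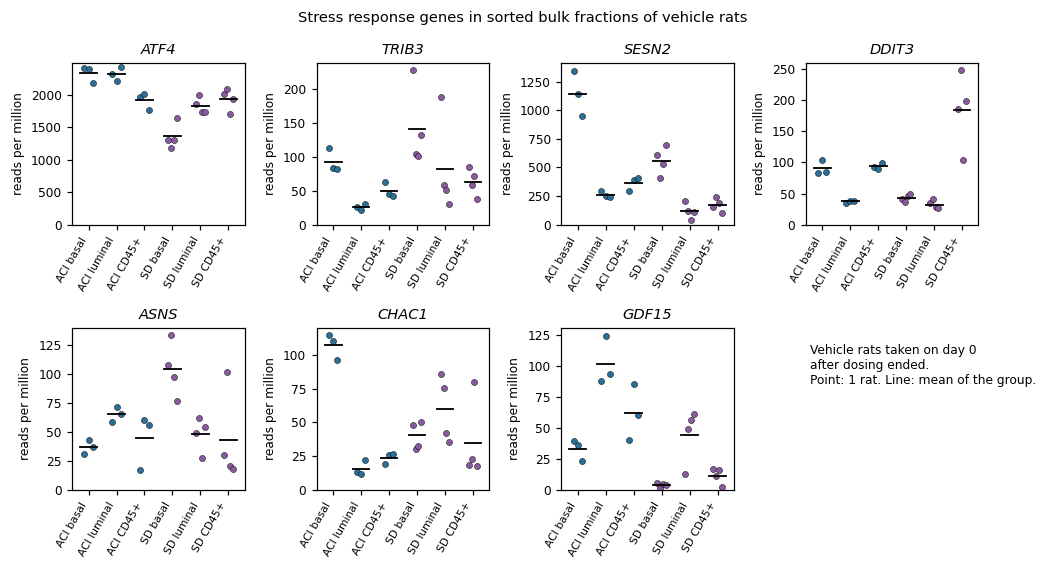
Levels in rpm of the 7 integrated stress response genes in vehicle rats on day 0 after dosing, by strain (ACI, n = 3 rats; SD, n = 4 rats) and sort. Each point is a rat and each line the mean of a group. CHAC1 of ACI rats is at 96.5 to 115 in basal cells and at 11.7 to 21.9 in luminal cells, and GDF15 of SD rats at 1.64 to 5.36 in basal cells and at 12.3 to 61 in luminal cells.

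Of the target genes, CHAC1, a gamma-glutamylcyclotransferase that degrades glutathione, was at 115, 111 and 96.5 rpm in ACI basal cells, at 13.3, 11.7 and 21.9 rpm in ACI luminal cells and at 18.8, 26 and 26.5 rpm in CD45+ cells. The basal values lay above all others, and the difference between basal and luminal cells was 2.77 on the log2 scale (adjusted p = 1.19e-05). In SD rats CHAC1 was at 47.8, 30.1, 32.8 and 50.6 rpm in basal cells and at 85.9, 75.8, 42.2 and 35.7 rpm in luminal cells, overlapping ranges, and the fitted difference was -1.07 (adjusted p = 0.0217). That SD call was lost without replicate 1 (-0.86, adjusted p = 0.0841), replicate 2 (-0.90, 0.109) or replicate 3 (-1.01, 0.0828) and without the libraries over the respiratory subunit limit (-0.67, 0.178). With the rat as a block and all libraries its adjusted p was 0.0162.

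SESN2, a sestrin that senses leucine and restrains mTORC1, was higher in basal than in luminal cells of both strains. In ACI rats SESN2 was at 1347, 1139 and 949 rpm in basal cells against 292, 251 and 244 rpm in luminal and 298, 390 and 407 rpm in CD45+ cells. In SD rats it was at 612, 408, 529 and 692 rpm in basal cells against 209, 119, 37.4 and 110 rpm in luminal and 153.3, 245.6, 189.7 and 101.98 rpm in CD45+ cells. Neither strain showed an overlap of basal values with another sort, and the differences of 2.06 (adjusted p = 0.0156) and 1.89 (0.00593) passed the test. The ACI difference of SESN2 was 2.00, 2.01 and 2.18 without rat 1, 2 or 3, with adjusted p of 0.0957, 0.0962 and 0.0675, and with the rat as a block its adjusted p was 1.13e-06.

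TRIB3, a pseudokinase that binds ATF4 and damps its output, was at 113, 84.2 and 81.4 rpm in ACI basal cells against 25.3, 22.2 and 30.4 rpm in luminal cells and 63.5, 44.9 and 42.5 rpm in CD45+ cells. The basal values lay above both other sorts, and TRIB3 was higher in basal than luminal cells by 1.78 (adjusted p = 0.00321). Its adjusted p was 0.053 without rat 1 and 0.00129 with the rat as a block. In SD rats TRIB3 was at 228.1, 104.7, 101.5 and 132.3 rpm in basal cells, at 188, 58.4, 51.3 and 30 rpm in luminal cells and at 84.5, 58.5, 71.6 and 37.1 rpm in CD45+ cells. A single SD rat was the highest in each of the 3 sorts, the ranges of the epithelial sorts overlapped, and the difference of 0.50 did not pass (adjusted p = 0.396). Without the libraries over the subunit limit it was 1.41 (adjusted p = 0.00495).

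GDF15, a secreted stress cytokine of the TGF-beta family, was lower in basal than in luminal cells of both strains. GDF15 was at 39.3, 36.6 and 23.6 rpm in ACI basal cells, at 87.8, 125 and 93.8 rpm in luminal cells and at 40.4, 85.8 and 60.7 rpm in CD45+ cells, and in SD rats at 5.36, 1.64, 4.70 and 3.96 rpm, at 12.3, 48.8, 56.4 and 61 rpm and at 16.4, 11, 16.4 and 2.35 rpm. Basal and luminal ranges did not overlap, with differences of -1.69 in ACI (adjusted p = 0.0455) and -3.93 in SD (adjusted p = 2.67e-05). The ACI adjusted p was 0.0945, 0.175 and 0.255 without rat 1, 2 or 3, and 0.000182 with the rat as a block.

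ASNS, asparagine synthetase, was lower in ACI basal cells (30.5, 42.9 and 37 rpm) than in luminal cells (58.3, 71.6 and 65.4 rpm), by -0.88 (adjusted p = 0.00796). Its adjusted p was 0.0635 without rat 1, 0.0737 without rat 3 and 0.000464 with the rat as a block. In SD rats ASNS was at 107.2, 133, 97.4 and 76.8 rpm in basal cells against 48.9, 61.6, 27.4 and 54.2 rpm in luminal cells, with no overlap and the opposite sign. That SD difference of 0.59 did not pass (adjusted p = 0.0947), but it did with the rat as a block (0.0426), which is the fit that uses the shared rats. DDIT3 (CHOP), a C/EBP-family partner of ATF4 tied to cell death, was at 82.6, 104.3 and 84.2 rpm in ACI basal cells against 34.6, 38.7 and 38.7 rpm in luminal and 93.5, 89.7 and 98.5 rpm in CD45+ cells. Its difference of 1.22 on the log2 scale did not pass in all libraries without the block (adjusted p = 0.281) and passed with the rat as a block (0.00461). Without the libraries over the subunit limit the difference was the same 1.22, with an adjusted p of 1.68e-05. None of those ACI libraries is from day 0, so leaving them out changed the estimate of spread and not the compared values. That p is therefore no added support. In SD rats DDIT3 was highest in CD45+ cells, at 185.7, 248.8, 103.3 and 198.9 rpm, against 41.7, 36.4, 45.4 and 48.6 rpm in basal and 34.1, 40.5, 28.6 and 26.4 rpm in luminal cells. Its rpm were on average higher in basal than in luminal cells, but the fitted difference was -0.14 (adjusted p = 0.688). In SD rats the rpm and the tested normalized counts are scaled differently. The SD rpm of each member place basal cells higher relative to luminal cells than its fitted difference does.

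Across basal and luminal cells together, 9 of 14 member tests passed, where 34.1% of all genes tested were called. ACI rats gave 5 of 7 (20.5% of all genes called) and SD rats 4 of 7 (50.1%), so the SD share is near its background. With the rat as a block 11 of 14 passed. The members do not all follow the lists of genes that supply amino acids. Of 10 amino acid transporters, 6 were higher and 1 lower in ACI basal cells (median 1.64, all genes 0.21) and 7 higher and 0 lower in SD basal cells (median 2.11, all genes 0.13). Of 13 tRNA synthetase genes 3 were higher in ACI and 12 in SD basal cells, with 0 lower in either. SLC7A3, a cationic amino acid carrier, was higher by 7.54 and 7.50 in ACI and SD basal cells, SLC7A11, the cystine carrier, by 2.87 and 3.87, and PSAT1 of serine synthesis by 2.38 and 2.81. In SD basal cells ATF4 itself was lower than in luminal cells by -0.998 (adjusted p = 0.00259), and in ACI the difference was -0.04 (0.988).

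After TGFBRi, TRIB3 was the member that passed with limma in the young ACI rats, in basal cells on day 0. TRIB3 was at 411, 550 and 348 normalized counts in TGFBRi rats and at 1758, 1289 and 1164 in vehicle rats. The groups did not overlap, the fitted difference was -1.69 (SE 0.394, 95% interval -2.52 to -0.852, adjusted p = 0.0345), and the median over all genes was 0.30. Over the young ACI treatment comparisons 1 of 63 member tests passed, where 0.802% of all genes were called, and in basal cells on day 0 it was 1 of 7 against 3.34%. On the recovered reads DESeq2 called 5 of the 63, among them TRIB3 (-1.69, adjusted p = 0.00415) and CHAC1 (-1.25, 0.0316) in these basal cells. EdgeR called 0, with TRIB3 at -1.76 and an adjusted p of 0.0628. The call was also lost without vehicle replicate 1 (-1.51, adjusted p = 0.137), vehicle replicate 2 (-1.74, 0.103), TGFBRi replicate 1 (-1.87, 0.0559) or TGFBRi replicate 2 (-1.54, 0.135). Without the libraries over the subunit limit, none of which is from day 0, TRIB3 had an adjusted p of 0.000201 at the same difference of -1.69. Leaving them out changed the estimate of spread and not the compared values, so this p is no added support.

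CHAC1 was next, at 614, 926 and 508 normalized counts in TGFBRi basal cells on day 0 against 1792, 1693 and 1380 in vehicle basal cells. Its groups did not overlap either, but the difference of -1.28 (SE 0.371) had an adjusted p of 0.0656. Without the libraries over the subunit limit the adjusted p was 0.000939 at the same difference, again through the estimate of spread alone. SESN2 was at 9484, 13609 and 11586 against 21020, 17439 and 13574 (-0.58, adjusted p = 0.562), ATF4 at 32410, 27100 and 36932 against 37733, 36822 and 31302 (-0.14, 0.863), and DDIT3 at 1172, 1422 and 2107 against 1289, 1596 and 1205 (0.17, 0.910). The values of SESN2, ATF4 and DDIT3 overlapped between the treatments. ASNS differed by -0.32 (adjusted p = 0.482) and GDF15 by -0.31 (0.729).

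In that comparison 131 of 15643 genes fell and 392 rose. Of 11 amino acid synthesis genes 4 fell and 0 rose (median -1.31), among them PSAT1 by -1.82 (adjusted p = 0.00693), SHMT2, mitochondrial serine hydroxymethyltransferase, by -1.60 (0.0196) and MTHFD2 of the folate cycle by -1.55 (0.04). Of 10 transporters (median -0.27) and 13 tRNA synthetases (median -0.39) none passed the test. Other measures differed between these same libraries. The 10 basal markers summed to 18445 to 21058 rpm in vehicle and 6991 to 16397 rpm in TGFBRi rats, the 11 immediate early genes to 32903 to 39111 and 48272 to 55032 rpm, the leukocyte markers to 7.45 to 27.9 and 30.8 to 74.2 rpm, and the respiratory subunits to 10527 to 13556 and 3179 to 5661 rpm. The fibroblast markers overlapped, at 3482 to 8933 and 2701 to 33222 rpm. The part of these differences in the lower TRIB3 was not tested.

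On days 7 and 14 the TRIB3 ranges overlapped. The label fields of a day 7 rat conflict for its basal and luminal samples, whose descriptions say treated while title and treatment field say control, and it was used as vehicle. TRIB3 was at 1992, 806 and 784 normalized counts in TGFBRi against 1413, 2584 and 1921 in vehicle basal cells on day 7, and at 984, 1403 and 1905 against 2229, 1401 and 1908 on day 14. The rat with conflicting labels is the vehicle value of 2584. The difference was -0.83 on day 7 (adjusted p = 0.902; -0.61 and 1 without that rat) and -0.39 on day 14 (1), and the change of the treatment difference between day 0 and day 14 was -1.29 (adjusted p = 0.386). Over the tests of a change between days 0 of 42 member tests passed with limma (0.0351% of all genes called), with 5 at an unadjusted p under 0.05, 0 by edgeR and 1 by DESeq2. CHAC1 was at 1794, 954 and 957 against 1163, 2628 and 1526 on day 7 and at 1032, 997 and 1382 against 1982, 1137 and 1299 on day 14.

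**Figure D2:**
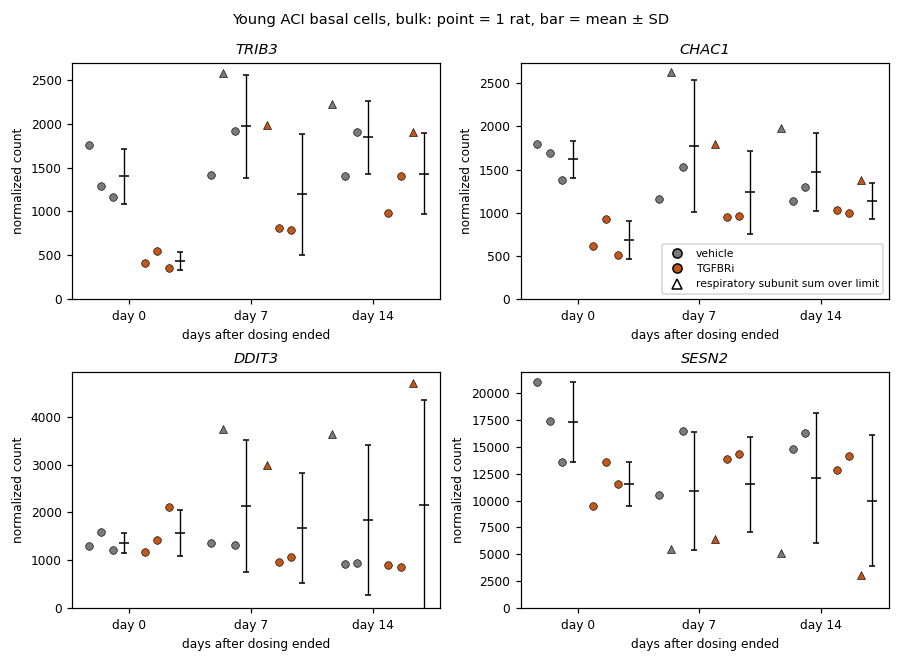
Normalized counts of TRIB3, CHAC1, DDIT3 and SESN2 in basal cells of young ACI rats by day after dosing (0, 7, 14) and treatment, 3 rats a group. Points are rats, triangles mark libraries with respiratory subunit reads over 22000 rpm, and bars are the mean and SD. TRIB3 and CHAC1 do not overlap between treatments on day 0, and the 4 triangles hold the highest DDIT3 and lowest SESN2 values of days 7 and 14.

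The scatter of DDIT3, ATF4 and SESN2 on these later days lay in 4 libraries over the subunit limit. DDIT3 was at 3734 and 3644 normalized counts in the 2 vehicle libraries and at 3000 and 4695 in the 2 TGFBRi libraries of this kind, against 868 to 1356 in the other 8 basal libraries of days 7 and 14. ATF4 was at 54369, 64432, 48159 and 52076 in the same 4 libraries against 20078 to 31660 in the other 8, and SESN2 at 5527, 5119, 6418 and 3046 against 10557 to 16508. Ranges of the 4 and the 8 libraries were apart for all 3 genes, and the share of all genes apart in this way is not given. Each treatment held 2 of the 4 as grouped here, where the vehicle library of day 7 is that of the rat with conflicting labels. Over the 196 rat libraries the subunit sum and SESN2, each taken as deviations from group means, had r = -0.60, DDIT3 0.44, ATF4 0.26 and TRIB3 -0.024, as descriptions over libraries that share rats and sequencing.

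Elsewhere in young ACI rats CHAC1 gave the largest differences, which did not pass with limma. DESeq2 called CHAC1 in CD45+ cells on day 0 (-1.31, adjusted p = 0.0107) and in luminal cells on day 7 (-1.64, 0.0453). It also called DDIT3 in CD45+ cells on day 0 (0.53, 0.00639). In CD45+ cells on day 0 CHAC1 was at 237, 222 and 269 normalized counts in TGFBRi against 431, 758 and 619 in vehicle rats, without overlap (-1.27, adjusted p = 0.0601). In the same libraries the fibroblast markers were at 978 to 7283 against 12687 to 32403 rpm. The 10 basal markers were at 12.9 to 23.7 against 231 to 593 rpm, and the 6 mature luminal markers at 29.6 to 77.2 against 84.1 to 114 rpm. The part of these lists in the CHAC1 difference was not tested. In luminal cells on day 7 it differed by -1.58 (adjusted p = 0.326), and by -1.24 (0.672) without the rat whose labels conflict. Without CD45+ day 0 vehicle replicate 1, 2 of the 63 member tests passed. Between vehicle rats of different days 0 of 42 member tests passed with limma (0.239% of all genes called), 13 had an unadjusted p under 0.05, and edgeR called 0 and DESeq2 5. The DESeq2 calls were ASNS, higher on days 7 and 14 in basal (1.08 and 0.84) and luminal cells (0.69 and 0.78), with adjusted p of 0.00451 to 0.0491, and CHAC1 in luminal cells on day 7 (1.63, 0.0185). GDF15 had the lowest values there in luminal cells, by -1.46 on day 7 (adjusted p = 0.29) and -1.66 on day 14 (0.508) relative to day 0. Without the libraries over the subunit limit 2 of the 42 passed, GDF15 in luminal cells on day 7 (-2.14, 0.0396) and ASNS in luminal cells on day 14 (0.79, 0.00697).

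In bulk sorts of SD rats, TGFBRi changed none of the members by the test. The count was 0 of 21 with limma (0% of all genes called), 1 at an unadjusted p under 0.05, and 0 by edgeR and by DESeq2. The basal differences were 0.66 for CHAC1 (adjusted p = 0.98), 0.46 for DDIT3 (0.98), 0.16 for ATF4 (0.981) and -0.15 for TRIB3 (0.985). In adult ACI rats 0 of 42 passed with limma (1.43% of all genes called), 4 had an unadjusted p under 0.05, and edgeR called 0 and DESeq2 1. The smallest adjusted p belonged to ATF4 in virgin basal cells, at 17317, 27453, 22936 and 11714 normalized counts in TGFBRi against 37131, 36343, 26776 and 34459 in vehicle rats (-0.82, adjusted p = 0.0717). A single TGFBRi value lay above the lowest vehicle value, and without TGFBRi replicate 2 of that group 1 member test passed. Between parous and virgin vehicle rats 0 of 21 passed with limma (0% of all genes called), with 1 at an unadjusted p under 0.05, 0 by edgeR and 1 by DESeq2. ATF4 in luminal cells had the smallest value there (-0.73, adjusted p = 0.315).

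GDF15 was lower with estradiol in luminal cells of both vehicle and TGFBRi rats. In vehicle rats GDF15 was at 637, 623, 811 and 516 normalized counts with E2 and at 3069, 1588, 3456 and 2353 without it. In TGFBRi rats it was at 371, 593, 1214 and 483 with E2 and tumor-free and at 1722, 2541 and 3217 without E2. Neither pair of groups overlapped, and the differences were -1.97 (SE 0.378, 95% interval -2.77 to -1.18, adjusted p = 0.0114) and -2.01 (SE 0.408, -2.87 to -1.15, 0.00989). The 2 tumor-bearing TGFBRi rats with E2 had 303 and 833. Over the estradiol comparisons 2 of 28 member tests passed (2.98% of all genes called), both in GDF15, 1 of 7 in luminal cells of vehicle rats (1.48%) and 1 of 7 in those of TGFBRi rats (4.58%). EdgeR also called 2, and DESeq2 called 3, with ATF4 in luminal cells of TGFBRi rats as the further call (-0.91, adjusted p = 0.0201). Without no-E2 vehicle replicate 3 the first had an adjusted p of 0.053 (-1.82), and without no-E2 TGFBRi replicate 3 the second had 0.057 (-1.80).

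**Figure D3:**
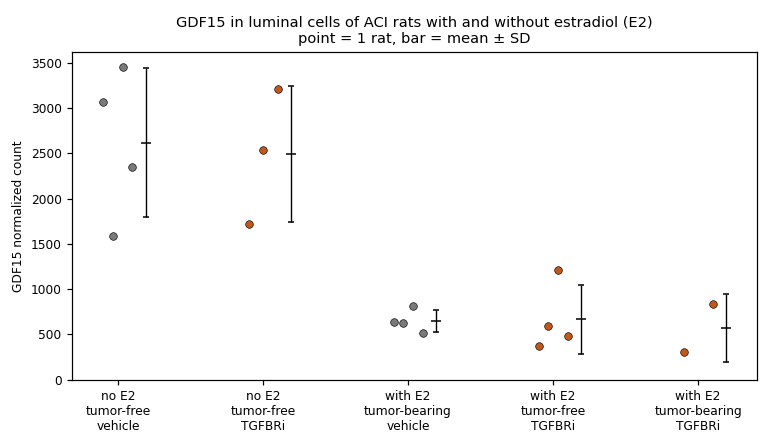
Normalized counts of GDF15 in luminal cells of the E2 experiment by implant, tumor state and treatment (2 to 4 rats a group). Points are rats and bars the mean and SD. All values without E2 (1588 to 3456) lie above all values with E2 (303 to 1214).

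The markers of mature luminal cells moved with GDF15. Their sum over 6 genes was 159 to 1614 rpm without E2 and 66.6 to 128 rpm with E2 in vehicle rats, and 732 to 1124 against 131 to 237 rpm in TGFBRi rats. Luminal progenitor markers overlapped in vehicle rats, at 24407 to 44312 rpm without E2 and 40462 to 49997 rpm with E2, and did not overlap in TGFBRi rats, at 23003 to 32499 and 34501 to 45063 rpm. Immediate early genes summed to 37357 to 54299 rpm without E2 and 24426 to 33985 rpm with E2 in vehicle rats, and to 31188 to 54048 and 18765 to 38009 rpm in TGFBRi rats. The part of these lists in the lower GDF15 was not tested. In the sorted single cells of vehicle rats GDF15 was at 154 to 274 CPM (UMIs of a gene scaled by all UMIs of the class in a rat) in mature luminal-like cells and at 39.4 to 124 in luminal progenitor-like cells of ACI rats, and at 119 to 342 and 2.62 to 7.32 in those of SD rats, so the ranges did not overlap in either strain. The other members did not pass with limma. ATF4 differed by -0.69 (adjusted p = 0.192) and -0.86 (0.0782) with E2 in luminal cells of vehicle and TGFBRi rats, and GDF15 in CD45+ cells of vehicle rats by -1.84 (0.145). STC2, a secreted glycoprotein and ATF4 target, was lower with E2 by -5.63 in vehicle (adjusted p = 0.0152) and by -7.43 in TGFBRi rats, and PHGDH of serine synthesis was higher by 2.78 in TGFBRi rats. TGFBRi itself gave 0 of 42 member calls in the E2 experiment with limma (0.00985% of all genes called), 5 at an unadjusted p under 0.05, and 0 by edgeR and by DESeq2. Without CD45+ tumor-bearing TGFBRi replicate 2, which leaves that group with 1 rat assumed to vary like the others, 2 passed.

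DDIT3 was the member that passed with limma in the glands of NMU rats, in luminal cells of tumor-bearing animals. DDIT3 was at 549, 304 and 635 normalized counts in tumor-bearing TGFBRi rats, at 1172, 1058 and 625 in tumor-free TGFBRi rats and at 2021, 3044 and 1615 in vehicle rats. The vehicle values lay above all others, and the difference between the tumor-bearing groups was -2.18 (SE 0.431, 95% interval -3.08 to -1.28, adjusted p = 0.037). EdgeR called 1 member in the NMU glands and DESeq2 called 2, DDIT3 (-2.15, adjusted p = 0.000408) and CHAC1 (-1.63, 0.0172), both in this contrast. With limma 1 of 42 member tests passed over the NMU gland comparisons (0.417% of all genes called), and in this contrast 1 of 7 (0.212%), which was DDIT3. The call was lost without vehicle replicate 1 (-2.23, adjusted p = 0.19) or 2 (-1.93, 0.351) and without TGFBRi replicate 1 (-2.29, 0.0691) or 2 (-1.86, 0.0972), with differences of similar size, while 3 member tests passed without vehicle replicate 3. In the same order of rats, the respiratory subunits were at 77850, 38812 and 14507 rpm in the vehicle libraries. In the tumor-bearing TGFBRi libraries they were at 19595, 26922 and 13587 rpm, so that only 1 vehicle and 2 TGFBRi libraries were under the limit. In a fit of those, which assumes that the lone vehicle library varies like the other groups, DDIT3 differed by -1.45 (adjusted p = 0.634). CHAC1 was at 1460, 538 and 1832 against 3639, 2682 and 5432 (-1.73, adjusted p = 0.0914), again without overlap, and differed by -1.73 (0.355) in that fit with 1 vehicle library.

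In the NMU tumors 0 of 14 member tests passed with limma (0% of all genes called), with 1 at an unadjusted p under 0.05, 0 by edgeR and 1 by DESeq2, SESN2 in CD45+ cells (-2.33, adjusted p = 0.0356). SESN2 differed most, in CD45+ cells, at 351, 87 and 148 normalized counts in TGFBRi against 965, 653 and 1335 in vehicle tumors (-2.51, adjusted p = 0.615), with no overlap of the groups. The respiratory subunits summed to 33034, 27221 and 31841 rpm in these TGFBRi libraries and to 28286, 23464 and 21697 in the vehicle ones, so 5 of the 6 were over the limit and no value can be given without them. Their part in the lower SESN2 was not tested. In EPCAM+ cells 1 TGFBRi library was over it, and without that library 0 of the 14 tests passed.

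In single cells the counts of unique molecules (UMIs) were summed per rat and tested with edgeR's quasi-likelihood test, with a threshold of 0.1 on the adjusted p. In these tests a large share of all genes passed, so the members' counts are read against it. In the sorted cells 18 of 56 member tests passed (28% of all genes called), all 18 of them higher after TGFBRi (14.4% of all genes higher) and 0 lower (13.5%). With scaling to total UMIs in place of TMM factors 11 of the 56 passed, 10 higher and 1 lower, while all genes turned towards lower values (1059 higher and 4735 lower calls in ACI basal cells, against 2185 and 2463 with TMM). By gene the 18 were ATF4 6, TRIB3 4, SESN2 4, DDIT3 3 and CHAC1 1, with none for ASNS and GDF15. The fits of luminal progenitor-like and mature luminal-like cells reuse cells of the fits of all luminal cells. Both sorts also come from the same rats, so the 18 calls are not separate rises.

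ACI basal cells gave 4 of 7 members higher (33% of all genes called). ATF4 was at 1409, 1291 and 1419 CPM after TGFBRi and at 1018, 1107 and 950 in vehicle rats, a difference of 0.65 (SE 0.11, adjusted p = 0.00121). DDIT3 was at 72.9, 73.5 and 84 against 50.5, 50.5 and 33.4 (1.00, SE 0.158, 0.00149), and SESN2 at 264, 202 and 277 against 98.2, 88.7 and 42.7 (1.91, SE 0.361, 0.0189). None of these 3 genes had overlapping groups, and the share of all genes apart in this way is not given. TRIB3 was at 75.4, 30.2 and 80.7 against 27.4, 22.9 and 12.7, a difference of 1.77 (SE 0.531, adjusted p = 0.0817) that was lost in 5 of the 6 fits that leave out a rat. In the bulk basal sort of ACI rats with other labels on the same day TRIB3 was lower after TGFBRi, by -1.69, and SESN2 differed by -0.58, so the data sets gave opposite signs for these genes, and this difference between data sets was not tested. CHAC1 differed by 0.94 in the single cells (adjusted p = 0.292), GDF15 by 0.61 (0.438) and ASNS by -0.24 (0.203).

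In the same ACI basal cells, where 2185 of 14094 genes rose, parts of the supply lists passed in the higher direction. Of 11 amino acid synthesis genes 6 rose and 0 fell (median 0.78), of 10 transporters 6 rose and 0 fell (median 0.52), and of 13 tRNA synthetases 8 rose and 0 fell (median 0.38), where the median of all genes was -0.03. PHGDH rose by 1.29 (adjusted p = 0.000201), SLC7A1, a carrier of cationic amino acids, by 1.53 (0.00231), MTHFD2 by 1.72 (0.0494) and STC2 by 4.10 (0.00609). Immediate early genes, which respond within minutes to growth factors and to tissue handling, went the other way, with 1 of 10 higher and 6 lower (median -0.65). Their sum was 18026 to 19903 CPM after TGFBRi and 28002 to 39347 in vehicle rats, and the 10 basal markers summed to 22763 to 23391 and 27483 to 28191. The respiratory subunits were at 16817 to 18076 and 14656 to 15570 CPM, higher after TGFBRi, where in the bulk basal sort of the same day they were lower. The part of these lists in the members' rise was not tested.

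Luminal cells of ACI rats gave 4 of 7 members higher when taken whole (25% of all genes called), 3 of 7 in luminal progenitor-like cells (28%) and 5 of 7 in mature luminal-like cells (26.1%). In all luminal cells SESN2 rose by 0.76 (adjusted p = 0.0109), TRIB3 by 0.91 (0.0257), ATF4 by 0.59 (0.0216) and DDIT3 by 0.46 (0.0283). CHAC1 rose only in the mature luminal-like cells by the test, by 1.32 (adjusted p = 0.0288), and the difference between the luminal classes was not tested. The immediate early genes summed to 25170 to 29056 CPM in TGFBRi and 37108 to 52060 in vehicle luminal cells, and the 10 luminal progenitor markers to 11971 to 13414 and 7158 to 9983. Of 16 cell type lists 5 were apart in all luminal cells, 2 higher and 3 lower after TGFBRi. The part of these lists and of the immediate early genes was not tested.

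Sorted cells of SD rats gave fewer calls. The count was 1 of 7 in basal cells (24.7% of all genes called), 0 of 7 in luminal cells (31.8%), 0 of 7 in luminal progenitor-like cells (24.6%) and 1 of 7 in mature luminal-like cells (30.2%), and both calls were ATF4, at 0.63 in basal (adjusted p = 0.0605) and 0.58 in mature luminal-like cells (0.0696). The immediate early genes summed to 5257 to 12559 CPM after TGFBRi and 15436 to 15749 in vehicle rats in the basal cells, and to 9245 to 22010 and 24724 to 27964 in the mature luminal-like cells. The 10 luminal progenitor markers summed to 1721 to 2816 and 1457 to 1645 in the basal cells, and to 8382 to 12443 and 5054 to 6745 in the mature luminal-like cells, without overlap. The part of these lists in the ATF4 calls was not tested. All 4 counts lie under the share of all genes. The other basal differences were 0.99 for TRIB3 (adjusted p = 0.375), 0.57 for DDIT3 (0.175) and 0.45 for SESN2 (0.414). TGFBRi replicate 5 stood apart from the other 5 treated rats, with basal TRIB3 at 249 CPM, CHAC1 at 131, GDF15 at 125 and SESN2 at 461. It was left out after seeing the data. Without it TRIB3 in basal cells differed by 0.06 (adjusted p = 0.896) and CHAC1 by -0.56 (0.116) in place of 0.35, and CHAC1 in luminal progenitor-like cells by -1.69 (0.0636) in place of 0.51. Over the SD sorted fits 3 of 28 member tests then passed in place of 2. CHAC1 in luminal progenitor-like cells was at 30.3 CPM in replicate 5 and at 0.652 to 3.50 in the other 5 treated rats, which are low levels.

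**Figure D4:**
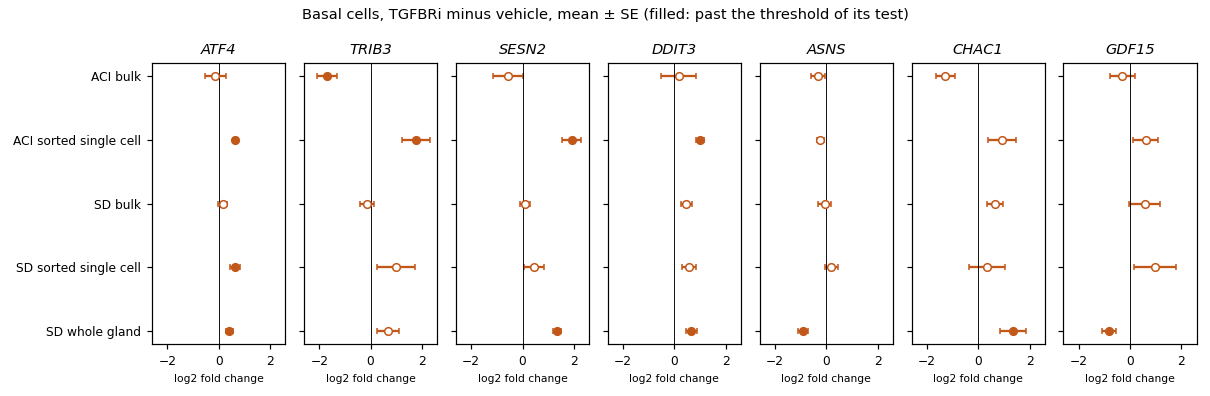
Log2 difference between TGFBRi and vehicle rats in basal cells on day 0 for the 7 genes in 5 data sets (ACI bulk, ACI sorted single cells, SD bulk, SD sorted single cells, SD whole gland). Bars are the standard error and filled points passed the test of their data set. TRIB3 is filled below 0 in ACI bulk (-1.69) and above 0 in ACI sorted single cells (1.77), and SESN2 is filled above 0 in ACI sorted single cells (1.91) and in SD whole gland (1.34).

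In unsorted glands of SD rats most member differences were lower after TGFBRi outside the basal cells. Over 12 cell classes 36 of 84 member tests passed (21.7% of all genes called), of which 32 were lower (11.6% of all genes lower) and 4 higher (10.1%). Calls of lower GDF15 were made in 8 classes, of TRIB3 and ASNS in 7 each, of CHAC1 in 4, ATF4 in 3, SESN2 in 2 and DDIT3 in 1. The classes share libraries, and RNA set free from other cells was not removed, so these calls are not separate falls. GDF15 was at 2.70 to 5.14 CPM after TGFBRi and 6.31 to 11.98 in vehicle rats in B cell-like cells, against 1402 to 2070 and 2925 to 5956 in macrophage-like cells of the same libraries, and in the B cell-like and other classes of low level a part of free RNA in the difference was not tested. The 4 higher calls, in ATF4, DDIT3, CHAC1 and SESN2, all belonged to the basal epithelium-like cells. Classes were named from marker lists, and vehicle replicate 3 stood apart from the other vehicle rats in several of them, with ATF4 in macrophage-like cells at 1703 CPM against 836 and 796. Without that rat 39 of the 84 passed.

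Luminal progenitor-like cells gave 5 of 7 members lower (27% of all genes called). CHAC1 was at 3.48 to 32.9 CPM in the 6 TGFBRi rats and at 64.8, 137 and 168 in the vehicle rats (-3.12, SE 0.569, adjusted p = 0.00601), and TRIB3 at 5.54 to 17.4 against 32.2, 57.3 and 78.8 (-2.70, SE 0.346, 0.000917). SESN2 was at 26.8 to 43.4 against 71.5, 77.5 and 113 (-1.32, SE 0.186, 0.00112). ATF4 was at 566 to 744 against 1048, 948 and 1184 (-0.79, SE 0.157, 0.00611), and GDF15 at 44.8 to 103.7 against 161, 151 and 135 (-1.19, SE 0.226, 0.00506). No group of these 5 genes overlapped the other, and the share of all genes apart in this way is not given. The same number of members passed without vehicle replicate 3. DDIT3 differed by -0.27 (adjusted p = 0.457) and ASNS by 0.11 (0.846). Of 10 transporters 8 fell and 0 rose (median -1.63) and of 13 tRNA synthetases 7 fell and 0 rose (median -0.50), where the median of all genes was 0.05 and 2057 of 14008 genes fell. SLC7A11 fell by 2.11 on the log2 scale, ATF3, a stress-induced repressor, by 1.23, and the p53 targets AEN and PHLDA3 by 2.13 and 2.35. The 10 basal markers moved with the members, at 82.4 to 156 CPM after TGFBRi and 240 to 585 in vehicle rats without overlap. In all 3 of 16 cell type lists were apart in these cells, 1 higher and 2 lower after TGFBRi, and their part was not tested. The immediate early genes overlapped, at 10579 to 16628 and 9765 to 14364 CPM.

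Basal epithelium-like cells gave 6 of 7 members called (43% of all genes called), 4 higher and 2 lower. SESN2 was at 226 to 295 CPM against 139, 85.8 and 104.4 (1.34, SE 0.164, adjusted p = 0.000149), and ATF4 at 974.2 to 1288 against 973.7, 806 and 938 (0.42, 0.0245). The SESN2 groups were well apart, and the ATF4 groups all but touched. CHAC1 was at 57.3 to 198 against 86.1, 45.3 and 21.1 (1.34, adjusted p = 0.0706; 0.94 and 0.162 without vehicle replicate 3), and DDIT3 was higher by 0.66 (0.0264). ASNS was lower by -0.91 (adjusted p = 0.00287) and GDF15 by -0.83 (0.0309), and TRIB3 differed by 0.68 (0.244). The tRNA synthetases went against the 4 higher members, with 13 of 13 lower (median -0.85; 2997 of 14734 genes lower in all), and 5 of 10 transporters were lower and 1 higher. GARS was lower by -1.50 and SLC7A11 by -1.59, while EIF2AK2, the double-stranded RNA kinase of eIF2alpha, was higher by 1.57 (adjusted p = 0.000293). In these cells the 10 basal markers summed to 21720 to 28693 CPM after TGFBRi and to 15549 to 18489 in vehicle rats. They were the 1 list of 16 that was higher without overlap, while 2 were lower, and the part of these lists was not tested.

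The treatment difference in basal epithelium-like cells was tested against that in luminal progenitor-like cells and in fibroblast-like cells within the same rats, by an exact two-sided permutation test of 6 against 3 rats, whose smallest p is 0.0238, over 14 gene and class pairs. Against luminal progenitor-like cells the log2 differences were apart by 4.56 for CHAC1, 3.13 for TRIB3, 2.47 for SESN2, 1.01 for ATF4, 0.70 for DDIT3 and -1.21 for ASNS, each with an exact p of 0.0238, and by 0.278 for GDF15 (exact permutation p = 0.667). Against fibroblast-like cells they were apart by 2.32 for CHAC1, 1.95 for TRIB3, 1.40 for SESN2 and 1.04 for ASNS, each with an exact p of 0.0238, by 0.569 for DDIT3 and 0.284 for ATF4 (exact p = 0.0476) and by 0.509 for GDF15 (exact p = 0.19). These exact p-values are not adjusted for the 14 pairs, and both sets use the same basal epithelium-like values. The classes of a rat share a library, and the genes were chosen from these same data, so the values describe the calls above and are no separate evidence.

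Fibroblast-like cells gave 3 of 7 members lower (29.3% of all genes called). ASNS was at 13.5 to 30.6 CPM against 105.1, 124.6 and 37.7 (-2.22, adjusted p = 0.000709), TRIB3 at 16.3 to 32.5 against 107.2, 93.2 and 19.7 (-1.74, 0.011), and GDF15 was lower by -1.55 (0.00112). The third vehicle value lay nearest to the treated rats in ASNS and inside their range in TRIB3. CHAC1 was at 42.5 to 119 against 352, 300 and 28.4 (-1.55, adjusted p = 0.119), and without that rat, vehicle replicate 3, CHAC1 passed (-2.09, 0.00447), as did SESN2 (-0.69, 0.00366). All 13 tRNA synthetases were lower here (median -1.16; 2347 of 15248 genes lower in all), with 8 of 10 transporters and 7 of 12 synthesis genes lower and 1 synthesis gene higher. In the same cells 8 macrophage markers summed to 9.32 to 17.6 CPM after TGFBRi and 17.7 to 23.1 in vehicle rats, and 6 endothelium markers to 30.6 to 36.7 and 38.6 to 49.02, without overlap. Markers of pericytes (175 to 210 and 108.04 to 146) and of B cells (115 to 131 and 41.9 to 78.1) were apart the other way. The part of these lists was not tested.

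In the other 9 classes every member call was lower, and the shares in brackets count all genes called in either direction. B cell-like cells had 6 of 7 members lower (17.4% of all genes called), among them ASNS (-2.02), GDF15 (-1.52) and ATF4 (-0.66), and 12 of 13 tRNA synthetases lower (1089 of 12779 genes in all). Without vehicle replicate 3 ATF4 in B cell-like cells was at -0.32 and DDIT3 at -0.34 in place of -0.67, and both still passed. Schwann cell-like cells had 3 of 7 lower (10.3%), with CHAC1 at -2.43, TRIB3 at -2.29 and ASNS at -1.33, and lymphatic endothelium-like cells 3 of 7 lower (15.2%), with ASNS at -2.59, TRIB3 at -1.80 and CHAC1 at -1.18. Endothelium-like cells had 2 of 7 lower (31.5%), GDF15 at 123 to 221 CPM against 1812, 1342 and 375 (-3.02, adjusted p = 0.00143) and ASNS (-2.06, 0.000618), and pericyte-like cells 2 of 7 (27.5%), ASNS (-2.11) and GDF15 (-1.71). Mature luminal-like cells had 2 of 7 lower (28.6%), TRIB3 (-1.62, 0.00644) and CHAC1 (-1.83, 0.0604). The counts in endothelium-like, pericyte-like and mature luminal-like cells lie near the share of all genes called there. Of all genes, 2358 of 13385, 2229 of 13580 and 1994 of 13188 were lower in these classes. Macrophage-like cells had 1 of 7 lower (7.92%), GDF15, at 1402 to 2070 against 2925, 4868 and 5956 CPM (-1.63, adjusted p = 0.00246), where the groups did not overlap. Dendritic cell-like cells had 2 of 7 lower (4.87%), ATF4 (-0.66, 0.0471) and GDF15 (-1.59), and T and NK cell-like cells 1 of 7 (5.23%), TRIB3 (-0.71). Without vehicle replicate 3 the calls of CHAC1 in mature luminal-like cells (-1.94, adjusted p = 0.119) and of ATF4 in dendritic cell-like cells (-0.36, 0.174) were lost, and TRIB3 passed in endothelium-like (-0.65, 0.00799), pericyte-like (-1.16, 0.00633) and macrophage-like cells (-0.82, 0.0791).

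Summed marker lists were apart between the treatments in each of these 9 classes, 1 to 4 of 16 cell type lists in a class. The respiratory subunits were higher after TGFBRi without overlap in 4 of them, at 18750 to 21688 CPM against 17134 to 18398 in endothelium-like, 25423 to 29950 against 20702 to 24663 in mature luminal-like, 19475 to 24265 against 15051 to 19369 in lymphatic endothelium-like and 17669 to 19104 against 14483 to 16192 in macrophage-like cells. The immediate early genes were higher in lymphatic endothelium-like (10164 to 17278 against 8142 to 9008) and Schwann cell-like cells (8377 to 15541 against 7422 to 7798). In 5 classes the markers of the class itself or of leukocytes were higher where members were lower. Endothelium markers summed to 2596 to 3068 against 2000 to 2076 CPM in endothelium-like cells, lymphatic markers to 2897 to 5212 against 2378 to 2699 in lymphatic endothelium-like cells, mature luminal markers to 2496 to 4099 against 1830 to 2449 in mature luminal-like cells, B cell markers to 1840 to 2424 against 1415 to 1799 in B cell-like cells, and 6 leukocyte markers to 2407 to 3044 against 1488 to 1946 in macrophage-like cells. Markers of another class were lower after TGFBRi in some, such as basal markers in mature luminal-like (29.6 to 64.4 against 118 to 833) and T and NK cell-like cells (28.5 to 52.2 against 52.8 to 118), dendritic cell markers in B cell-like cells (586 to 788 against 979 to 1525), luminal progenitor markers in dendritic cell-like cells (157 to 283 against 394 to 683) and mature luminal markers in pericyte-like cells (122 to 182 against 214 to 564). The part of these lists in the members' differences was not tested.

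**Figure D5:**
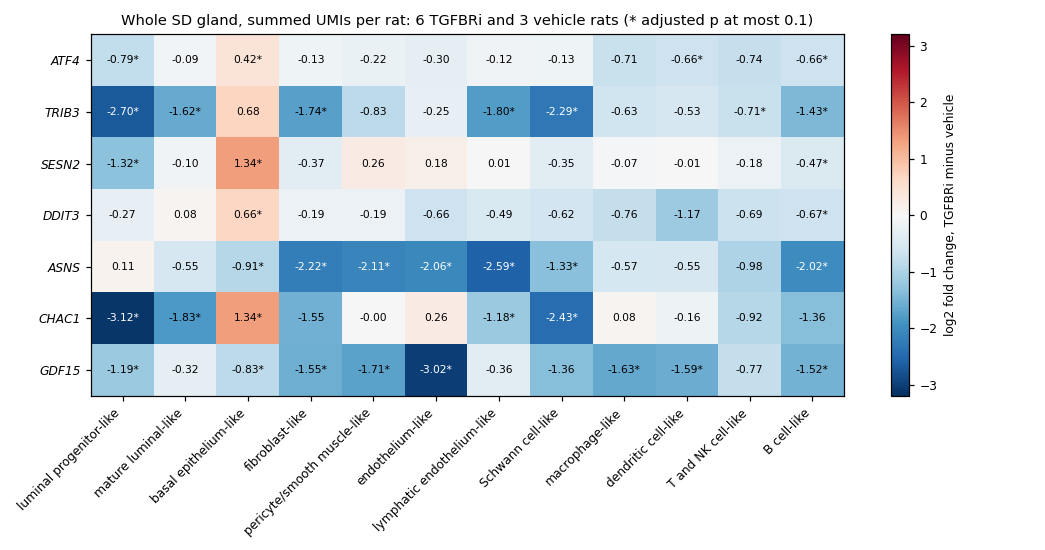
Log2 difference between TGFBRi (6 rats) and vehicle (3 rats) for the 7 genes in 12 cell classes of unsorted SD mammary gland, with an asterisk where the adjusted p was at or under 0.1. Luminal progenitor-like cells show the lowest values of CHAC1 (-3.12) and TRIB3 (-2.70), and the positive asterisks are all in basal epithelium-like cells.

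The luminal progenitor-like cells of sorted and unsorted SD glands gave different values, and this difference was not tested. TRIB3 and CHAC1 were lower after TGFBRi in the unsorted glands, by -2.70 and -3.12, and differed by -0.08 (adjusted p = 0.936) and 0.51 (0.805) in the sorted cells. Without TGFBRi replicate 5, left out after seeing the data, the sorted values were -0.70 for TRIB3 (adjusted p = 0.264) and -1.69 for CHAC1 (0.0636). Both then had the sign seen in the unsorted glands. Leaving out the treated rat with the highest CHAC1 lowers the CHAC1 difference by construction, so its sign is no separate evidence. The experiments differed in rat labels, sorting, 10x chemistry (3' for sorted cells, 5' for unsorted glands) and Cell Ranger version. Per the study's methods, only the sorted data left out cells with any read of PTPRC (CD45) or with few keratin reads. These differences cannot be told apart. Scaling to total UMIs in place of TMM factors moved the median of all genes in sorted cells, from -0.03 to -0.25 in ACI basal, -0.01 to -0.28 in ACI luminal, 0.07 to -0.32 in SD basal and 0.08 to -0.26 in SD luminal cells, and in the unsorted gland from 0.05 to 0.23 in luminal progenitor-like and from 0.03 to 0.24 in fibroblast-like cells. With it the calls over all genes went from 1725 and 2057 to 2575 and 1373 in luminal progenitor-like cells. The called members kept their direction, 8 of the 18 calls in sorted cells were lost and ASNS in ACI basal cells passed (-0.47, adjusted p = 0.0135). The lost calls were ATF4 in all luminal cells (0.31, adjusted p = 0.116) and luminal progenitor-like cells (0.15, 0.387) of ACI rats and in both SD calls (0.23, 0.327; 0.26, 0.265), DDIT3 in all luminal cells (0.19, 0.352), TRIB3 in luminal progenitor-like (0.23, 0.438) and mature luminal-like cells (1.10, 0.13), and SESN2 in mature luminal-like cells (0.37, 0.199).

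Over the 196 bulk rat libraries, TRIB3 and CHAC1 were the members that varied most together once group means were removed, with r = 0.67, and DDIT3 with ATF4 had r = 0.54. TRIB3 had r = 0.69 with the mean of the other 6 members, CHAC1 0.67, ATF4 0.49, ASNS 0.45, SESN2 0.42, GDF15 0.15 and DDIT3 0.10. The genes outside the 7 whose deviations were most like the members' mean were FOSL1 (0.77), HMOX1 (0.71), PVR (0.70), MAFG (0.70), TUBB6 (0.69), TUBB4B (0.69), SLC3A2 (0.67) and SQSTM1 (0.67), among 6266 genes compared. These values are descriptions, since the libraries share rats, depth and sequencing runs.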

How the data were processed

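The 7 genes and the gene lists compared with them were chosen with earlier results of these data known. Bulk RNA of sorted rat mammary cells was amplified with a low-input SMARTer kit and, per the study's methods, aligned with STAR 2.5.1b to rn6, counted per gene without strand with HTSeq and normalized with DESeq2 1.30.1 by the authors, whose deposited values are DESeq2-normalized counts, a signal and not raw counts. Reads were recovered from them, since 100% of 2526550 values above 0 in 202 samples were whole multiples of the value of a read within a tolerance of 0.001. In 85 samples rows that name no gene held 23.1 to 42.5% of the value and were left out. For parts of 1 rat's sample the normalized values were averaged and the recovered reads summed, which gave 196 rat libraries. Duplicates were looked for in 237 pairs of samples, of which none agreed within sampling noise.

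Single-cell tables are UMI counts deposited by the authors after Cell Ranger 4.0.0 (sorted cells) or 7.0.0 (whole gland), and were used as counts. Cells were kept by the filters of the study's methods and clustered with the Leiden method (leidenalg 0.10.2, resolution 0.8, 20 neighbours, 30 components, 2000 genes), giving 13, 23 and 40 clusters, of which 1, 4 and 5 stayed unnamed, in 16762 ACI sorted, 39766 SD sorted and 103524 whole-gland cells. No doublet caller was run, and leaving out the top 6% of cells by UMIs was an alternative. Sorted libraries held 563 to 3853 cells with median UMIs of 4251 to 15941, and whole-gland libraries 7900 to 16424 cells with 2820 to 3885. Whole-gland libraries shared 88 to 284 barcodes per pair, at most 2.51% of cells, and sorted libraries at most 0.516%.

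Bulk values were tested with limma 3.58.1 on log2(normalized count + 1) for genes summing to at least 10, with a threshold of 0.05 on the Benjamini-Hochberg adjusted p. The fixed design had assumed raw counts, and the unit of the tables was used instead. UMIs summed per rat and class (at least 10 cells and 10 counts) were tested with edgeR 4.0.16 (quasi-likelihood, TMM) at 0.1. All p-values are two-sided. Alternatives were edgeR and DESeq2 1.42.0 on recovered reads, a pseudocount of 4, other filters, only the samples of a contrast, each rat left out and, for sorts of the same rats, the rat as a block. Same-rat basal and luminal libraries deviated together, with r of 0.0578 to 0.932 in 18 ACI rats and 0.0395 to 0.267 in 8 SD rats, and the pairing comes from the rat names in the labels. Leaving out libraries over the respiratory subunit limit, and rats that stood apart, was added after seeing the data. Named genes were the 7 members, up to 3 genes of a list with the largest absolute differences among those that passed the test in a comparison described, and the 8 genes with the highest r to the members' mean over bulk rats (mean value of at least 50 in every fit). Scripts were tested on simulated data with known answers.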

Additional observations from a re-analysis of the deposited data

Results flagged for a closer look

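Single rats stood apart in 26 of 266 groups of 4 to 10 rats that were checked (9.77%), which means that the gap of the highest or lowest rat to the nearest other, over the whole range of its group, was above Dixon's 95% critical value. That limit by its construction marks about 1 in 20 groups by chance. The groups here share rats, libraries and genes, so the share is not tested against it. In sorted SD single cells 7 of them were TGFBRi replicate 5, with TRIB3 at 249, CHAC1 at 131 and GDF15 at 125 CPM in basal cells, CHAC1 at 30.0435 in luminal cells, 30.3 in luminal progenitor-like and 29.9 in mature luminal-like cells, and GDF15 at 22.9 in luminal progenitor-like cells. ASNS stood apart in replicate 6 of that treatment in mature luminal-like cells, at 35.3 CPM.

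In the whole gland, TGFBRi replicate 4 had CHAC1 at 51.2 and TRIB3 at 10.2 CPM in dendritic cell-like cells. In mature luminal-like cells replicate 3 had CHAC1 at 81.2, replicate 5 had ATF4 at 509 and replicate 1 had GDF15 at 619.6 CPM, and replicate 1 had ATF4 at 1309.55 in pericyte-like cells.

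In bulk libraries of the E2 experiment, vehicle replicate 1 without E2 was the highest of its luminal group in CHAC1 (188 rpm) and TRIB3 (144 rpm). With E2, tumor-bearing vehicle replicate 3 had CHAC1 at 95.4 rpm in luminal and ASNS at 95.5 rpm in CD45+ cells, replicate 1 had TRIB3 at 74.6 rpm in luminal cells, tumor-free TGFBRi replicate 6 had GDF15 at 48.8 rpm in luminal cells, and replicate 5 had the lowest ATF4 of its CD45+ group, at 2255 rpm. In SD rats CHAC1 stood apart at 79.7 rpm in CD45+ vehicle replicate 3 and at 123 rpm in basal TGFBRi replicate 3, and ASNS at 101.4 rpm in CD45+ vehicle replicate 2. In adult ACI rats these were DDIT3 in luminal parous vehicle replicate 4 (15.7 rpm) and SESN2 in CD45+ parous TGFBRi replicate 4 (406 rpm).

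In the whole gland the treatment difference of basal epithelium-like cells was set against those of luminal progenitor-like and fibroblast-like cells by the exact two-sided permutation test, 6 against 3 rats. The p-values are not adjusted for the 14 gene and class pairs, and GDF15 was not apart in either comparison. Basal epithelium-like minus luminal progenitor-like cells gave 4.56 for CHAC1, 3.13 for TRIB3, 2.47 for SESN2, 1.01 for ATF4, 0.70 for DDIT3 and -1.21 for ASNS on the log2 scale (exact p = 0.0238 each, the smallest the design allows). Basal epithelium-like minus fibroblast-like cells gave 2.32 for CHAC1, 1.95 for TRIB3, 1.40 for SESN2 and 1.04 for ASNS (exact p = 0.0238 each) and 0.569 for DDIT3 and 0.284 for ATF4 (exact p = 0.0476 each).

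A further 3 pairs of comparisons were flagged because their group differences had opposite signs, and the difference within each pair was not tested. The treatment differences of ASNS in ACI basal cells on day 7 and CD45+ cells on day 14 were apart by -1.64, those in CD45+ and luminal cells on day 14 by 1.32, and the parity differences of ATF4 in CD45+ and luminal cells by 0.93. None of these differences passed with limma in its own comparison, such as ASNS in basal cells on day 7 (-0.68, adjusted p = 0.825) and in luminal cells on day 14 (-0.36, 0.769). Without the rat whose labels conflict the former was -0.46. The pairs were picked from many, and the share of all pairs apart in this way is not given.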

How the results depend on the processing

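Over the alternatives that leave out a rat, the member calls ran from 0 to 1 in adult ACI rats (0 with all rats), 0 to 2 in the E2 experiment (0), 1 to 2 for estradiol (2), 0 to 3 in NMU glands (1), 0 to 2 in young ACI rats (1), 0 to 1 between days in vehicle (0), 0 to 1 for the change between days (0), 5 to 9 between basal and luminal cells (9) and 12 to 21 in sorted single cells (18). The 5 calls between basal and luminal cells came without ACI day 0 vehicle replicate 1. DESeq2 gave 1 call in adult rats, 1 for parity, 3 for estradiol, 2 in NMU glands, 1 in tumors, 5 in young ACI rats, 5 between days and 1 for the change between days, and edgeR gave 0 in young ACI rats. In NMU glands the call was lost with a mean of at least 10, without a filter, with only the samples of the contrast and without the libraries over the subunit limit (0 each), the last with 1 vehicle luminal library left in the contrast that held the call. In young ACI rats 2 passed with a pseudocount of 4, with a mean of at least 10, with only the samples of the contrast and without the libraries over the limit, and between days in vehicle 3 and 2 passed with the last 2 of these. In sorted single cells 11 passed with total UMIs in place of TMM. The cause of these changes was not tested. Whole-gland calls stayed between 34 and 43 (36). With a replicate block for the rat, 11 calls were made between basal and luminal cells, and no value in any alternative changed its sign among the called members. Bulk fits of 3 rats a group, and 1 to 3 counts of UMIs per rat in small classes, limit what could be detected.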
